A study of Mus musculus with 6 samples.

Results

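The MHC class I and immunoproteasome genes are the genes through which a cell cuts its own proteins into peptides and shows them at its surface to cytotoxic T cells. Members were taken from a list of 10 genes, and a gene was kept where a row of the deposited array table was annotated to that gene alone, with the highest-mean row used per gene. By this rule 9 of the 10 were found among 22179 genes in all: the heavy chain H2-K1, the light chain B2m, the transporter subunits Tap1 and Tap2, tapasin (Tapbp), the immunoproteasome subunits Psmb8, Psmb9 and Psmb10, and the regulator Nlrc5. The second heavy chain, H2-D1, had only a row shared with H2-Q2, and that row stands with the results set aside at the end.

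Expression had been measured on Affymetrix Mouse Gene 2.0 ST arrays in cells sorted from mouse small-cell lung cancer, a neuroendocrine tumour of the lung. There were 3 GFP-high and 3 GFP-negative arrays. All 6 came from tumours of mice with conditional triple knockout of Rb, p53 and p130, 3 tumour suppressor genes, in which intratracheal Adeno-Cre, an adenovirus carrying the Cre recombinase, had started the tumours 5 to 6 months earlier. All the mice carried a GFP reporter allele for Hes1, a Notch target gene. The groups differed in the sorted level of that reporter, high in one and "negative / low" in the other, and the tumours of 3 mice had been pooled for the sort. The sources used here do not give the promoter that drives Cre in the virus, the strain and age of the mice, or any gate other than GFP. The labels call the arrays of a group biological replicates without saying whether each had its own pool, so p-values measure only the spread between these samples.

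In class I presentation, the proteasome cuts proteins in the cytosol. Under interferon its 3 constitutive catalytic subunits can be replaced by Psmb8, Psmb9 and Psmb10, which gives the immunoproteasome. The Tap1 and Tap2 transporter carries the peptides into the endoplasmic reticulum, where tapasin holds it beside an empty heavy chain paired with B2m, and the loaded complex travels to the surface. Nlrc5 acts in the nucleus as the coactivator of these genes, on promoters bound by RFX, CREB/ATF and NF-Y proteins, while interferon and NF-kB signalling act through sites of their own. Small-cell lung cancer is known for low class I expression, with higher levels in its less neuroendocrine cells.

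The sort was checked on the gene whose reporter it used. Hes1 was at 10.49, 10.27 and 10.43 on the log2 scale in GFP-high cells and at 6.93, 6.98 and 6.65 in GFP-negative cells. Over all genes, arrays of one group correlated at 0.987 to 0.991 and arrays of different groups at 0.918 to 0.940. The tissue label was checked against its markers: neuroendocrine markers, on 10 measured of 12 listed, averaged 10.06 to 10.17 in GFP-negative cells and 7.43 to 8.44 in GFP-high cells, so that they were present in both groups and lower in GFP-high. Within the GFP-high group, replicate 3 had the highest neuroendocrine mean, 8.44 against 7.63 and 7.43.

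All 9 members were higher in GFP-high cells, by 0.48 (B2m) to 1.38 (Psmb10) on the log2 scale with a median of 0.91, against a median of 0.01 over all genes. Each of the 9 passed at an adjusted p under 0.05 with limma and Benjamini-Hochberg adjustment over all 22179 genes, in a comparison in which 13.0% of all genes were called higher and 17.0% lower. In each of the 9 the lowest GFP-high array lay above the highest GFP-negative array, which was true of 20% of all genes. In sorted pools, a change in the share of cells that express a gene cannot be told apart from a change in RNA per cell.

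**Figure D1:**
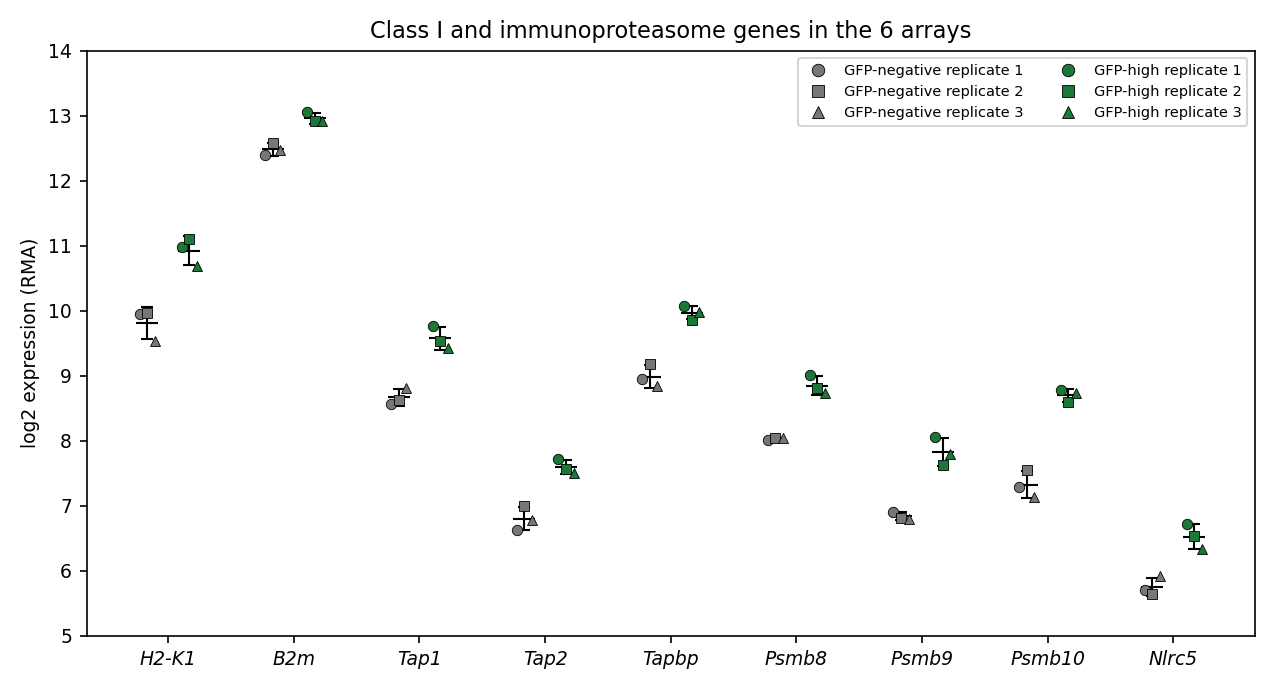
Log2 expression (RMA) of the 9 members, 1 symbol per array, with the group mean and SD as black bars (n = 3 per group). Every GFP-high symbol (green) lies above every GFP-negative symbol (grey) of the same gene, with the smallest gap, 0.33, in B2m and the largest, 1.04, in Psmb10.

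The classical heavy chain H2-K1 binds the peptide and is read by the T cell receptor. It was at 10.99, 11.11 and 10.69 in GFP-high cells and at 9.94, 9.96 and 9.53 in GFP-negative cells. Replicate 3 was the lowest of its group on both sides, and the groups did not overlap. H2-K1 rose by 1.11 ± 0.16 on the log2 scale (SE, n = 3 per group), or 2.17-fold with a 95% interval of 1.67 to 2.81 (adjusted p = 0.000983, limma). Heavy chains of this family are close in sequence, and how far the row's probes also bind transcripts of its relatives was not tested.

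The light chain B2m, which every class I heavy chain needs to reach the surface, was at 13.06, 12.91 and 12.92 in GFP-high cells and at 12.39, 12.58 and 12.48 in GFP-negative cells. The groups did not overlap, but they lay closer than those of any other member. B2m rose by 0.48 ± 0.11 on the log2 scale (SE, n = 3 per group), or 1.40-fold with an interval of 1.17 to 1.67 (adjusted p = 0.0112, limma). Its values stood near the top of the table, whose largest value is 13.72, and whether its signal saturates there was not tested.

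The promoters of H2-K1 and B2m are shown for their matches, in a short stretch, to motifs of interferon, NF-kB and CREB/ATF factors and to CCAAT boxes. No RFX motif was searched for in these promoters. They are the 250 bases before the RefSeq start site in the GRCm38.p6 build, printed 5′ to 3′ on the gene's strand: chr17:34000334-34000583 on the minus strand for H2-K1 and chr2:122147437-122147686 on the plus strand for B2m. Capitals mark matches to an interferon regulatory factor core, AANNGAAA, a kB motif, a CREB/ATF core, TGACG, and a CCAAT box, each searched on both strands.
H2-K1: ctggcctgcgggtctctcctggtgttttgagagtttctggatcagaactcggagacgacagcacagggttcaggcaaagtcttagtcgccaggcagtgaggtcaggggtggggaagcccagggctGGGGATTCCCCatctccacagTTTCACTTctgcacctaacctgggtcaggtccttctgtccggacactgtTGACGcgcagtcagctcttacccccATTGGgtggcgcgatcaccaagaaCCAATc
B2m: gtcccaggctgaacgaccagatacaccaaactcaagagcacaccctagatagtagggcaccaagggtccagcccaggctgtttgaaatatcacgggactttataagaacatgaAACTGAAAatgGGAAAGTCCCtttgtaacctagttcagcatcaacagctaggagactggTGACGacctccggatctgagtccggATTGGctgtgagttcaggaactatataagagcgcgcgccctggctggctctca
H2-K1 and B2m both held all 4 kinds of match. In H2-K1 the kB match, found at overlapping positions, lay 125 to 115 bases before the start. The IRF core lay at 104 to 97 and the CREB/ATF core at 55 to 51. CCAAT boxes stood at 30 to 26 and at 6 to 2. In B2m the IRF core came first, 137 to 130 bases before the start, followed by the kB match at 126 to 117, the CREB/ATF core at 78 to 74 and a CCAAT box at 53 to 49.

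Both subunits of the peptide transporter rose. Tap1, the transporter subunit that pairs with Tap2, was at 9.77, 9.53 and 9.42 in GFP-high cells and at 8.57, 8.62 and 8.81 in GFP-negative cells. The GFP-high values lay above all GFP-negative values, and replicate 1 was the highest of its group. Tap1 rose by 0.91 ± 0.13 on the log2 scale (SE, n = 3 per group), or 1.87-fold with an interval of 1.52 to 2.31 (adjusted p = 0.000934, limma). Tap2 was at 7.71, 7.57 and 7.51 against 6.63, 6.99 and 6.78, again with no overlap and with replicate 1 highest among the GFP-high arrays. It rose by 0.79 ± 0.13, or 1.74-fold with an interval of 1.41 to 2.13 (adjusted p = 0.00172, limma). The 95% intervals of both subunits cover each other's estimate.

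Tapasin, which bridges the transporter and the empty heavy chain and edits the bound peptide, was at 10.07, 9.86 and 9.98 in GFP-high cells and at 8.94, 9.18 and 8.84 in GFP-negative cells. Every GFP-high value was at least 0.68 above the highest GFP-negative value. Tapbp rose by 0.99 ± 0.13 (SE, n = 3 per group), or 1.98-fold with an interval of 1.61 to 2.43 (adjusted p = 0.000514, limma). A second row annotated to Tapbp gave a smaller difference, 0.60, in the same direction.

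All 3 immunoproteasome subunits rose, by 0.82 to 1.38 on the log2 scale. Psmb10 was at 8.79, 8.59 and 8.73 in GFP-high cells and at 7.29, 7.55 and 7.14 in GFP-negative cells, the widest separation of any member. It rose by 1.38 ± 0.14 (SE, n = 3 per group), or 2.60-fold with an interval of 2.09 to 3.22 (adjusted p = 0.000121, limma), and 3.80% of all genes had a larger upward difference. Psmb9 was at 8.06, 7.62 and 7.79 against 6.91, 6.81 and 6.80, with GFP-high replicate 1 above the other two. It rose by 0.99 ± 0.13, or 1.98-fold with an interval of 1.60 to 2.45 (adjusted p = 0.000655, limma). Psmb8 was at 9.01, 8.81 and 8.73 against 8.01, 8.05 and 8.04, where the GFP-negative arrays agreed to an SD of 0.018. It rose by 0.82 ± 0.12, or 1.76-fold with an interval of 1.47 to 2.11 (adjusted p = 0.000814, limma).

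Nlrc5, the class I coactivator, was at 6.71, 6.53 and 6.33 in GFP-high cells and at 5.70, 5.65 and 5.91 in GFP-negative cells. The groups did not overlap, and GFP-high replicate 3 came closest to the GFP-negative arrays. Nlrc5 rose by 0.77 ± 0.14 (SE, n = 3 per group), or 1.71-fold with an interval of 1.37 to 2.12 (adjusted p = 0.00276, limma).

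The GFP-high arrays did not hold the members at one level. Replicate 1 was the highest GFP-high array for 8 of the 9 members, all but H2-K1, and its median member stood 1.09 above the GFP-negative mean. The medians of replicates 2 and 3 stood 0.78 and 0.75 above it, and replicate 3 was the lowest GFP-high array for 5 members. The GFP-negative medians spread less, from -0.04 to 0.10. Replicate 3 was also the GFP-high array with the highest neuroendocrine mean, and the part of that in the members' values was not tested. Without it, all 9 members were still called higher, and leaving out any other array in turn also gave 9 of 9.

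The change in immunoproteasome subunits was read against the constitutive catalytic subunit that each replaces, within the same array. Psmb7, the counterpart of Psmb10, fell by 0.47 ± 0.12 on the log2 scale (adjusted p = 0.016, limma), from 9.72, 9.60 and 9.71 to 9.27, 9.06 and 9.31. This call was lost without GFP-high replicate 2 (adjusted p = 0.0537) and without GFP-negative replicate 1 (adjusted p = 0.0579). Psmb6, the counterpart of Psmb9, was at 8.48, 8.14 and 8.34 in GFP-high against 8.64, 8.52 and 8.61 and did not pass (adjusted p = 0.145). Psmb5, the counterpart of Psmb8, overlapped between the groups, at 7.84, 7.99 and 7.97 against 7.80, 8.07 and 7.90 (adjusted p = 0.971).

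All 3 pairs moved towards the immunoproteasome subunit. Psmb10 minus Psmb7 was -0.48, -0.46 and -0.58 in GFP-high cells and -2.43, -2.05 and -2.57 in GFP-negative cells, a shift of 1.84, or 3.59-fold in the ratio. The difference Psmb9 minus Psmb6 was -0.42, -0.51 and -0.55 against -1.74, -1.71 and -1.81, a shift of 1.26, or 2.39-fold. For Psmb8 minus Psmb5 it was 1.17, 0.82 and 0.76 against 0.21, -0.03 and 0.14, a shift of 0.81, or 1.75-fold. The groups did not overlap in any of the 3 pairs, and each exact two-sided permutation test gave p = 0.1, the smallest that 3 arrays against 3 allow. A difference between the rows of separate genes also holds their unequal probe response, so only its shift between groups can be read.

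**Figure D2:**
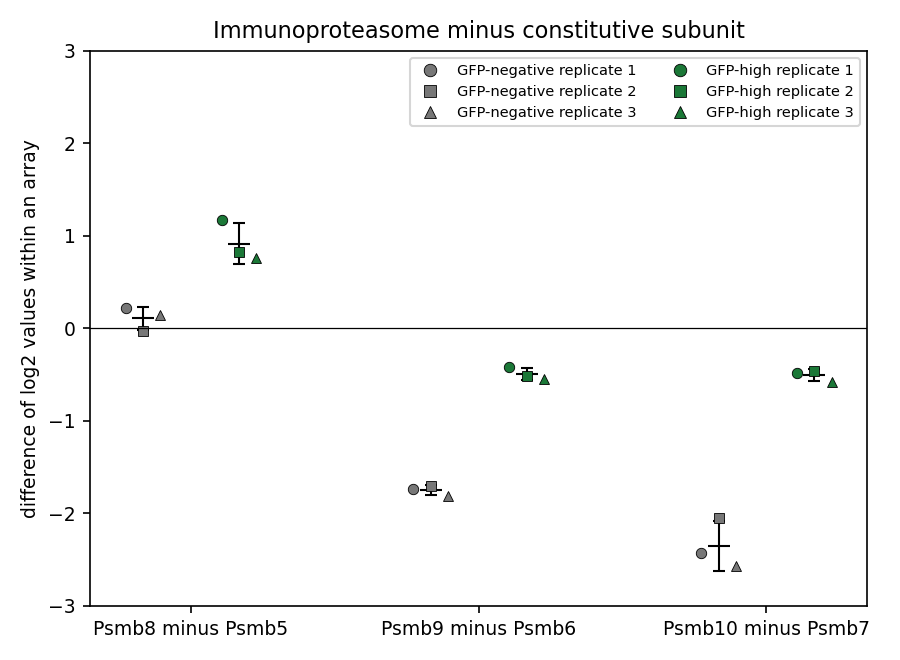
Within-array difference of log2 values, immunoproteasome subunit minus the constitutive subunit it replaces, 1 symbol per array with the group mean and SD (n = 3 per group). In all 3 pairs the GFP-high symbols (green) lie above the GFP-negative symbols (grey), by a mean of 0.81, 1.26 and 1.84 from left to right.

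Of the rest of the proteasome, 1 subunit was called higher. Of 10 other subunits of the 20S core 1 was higher, 0 were lower and 9 did not pass, with a median of -0.02. The one called was Psmb3, at 0.57 ± 0.15 (adjusted p = 0.0184, limma), a call lost without GFP-high replicate 2 (adjusted p = 0.0551) or GFP-negative replicate 3 (adjusted p = 0.0625) and without variance moderation (0.078). Of 17 subunits of the 19S regulatory particle, which unfolds tagged proteins, 0 were higher, 2 were lower and 15 did not pass, with a median of -0.23. Psmc4, an ATPase of that particle, fell by 0.64 ± 0.12 (adjusted p = 0.00368) and Psmd13 fell by 0.53 ± 0.12 (adjusted p = 0.0079). Psmd14 (-0.33 ± 0.12, adjusted p = 0.0672) and Psmd12 (-0.34 ± 0.14, adjusted p = 0.112) did not pass, nor did Psmb2 of the core (-0.49 ± 0.16, adjusted p = 0.053). The count of lower 19S genes was larger, 5, with array weights or without the lowest 30% of genes, and 4 without variance moderation or with trend and robust settings.

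Proteasome activators went the other way or did not pass. Psme1 and Psme2 form the interferon-inducible PA28 cap that opens the core, and neither passed, at -0.09 ± 0.14 (adjusted p = 0.674) and -0.26 ± 0.13 (adjusted p = 0.174). In GFP-high and GFP-negative arrays alike Psme1 lay between 10.21 and 10.62. Psme3, a nuclear activator, fell by 0.74 ± 0.13 (adjusted p = 0.00311), from 8.34, 8.31 and 8.24 to 7.45, 7.42 and 7.81. Psme4 fell by 0.43 ± 0.12 (adjusted p = 0.0251), a call lost without GFP-high replicate 2 (0.0815) or GFP-negative replicate 1 (0.0942). The assembly factor Pomp was at -0.06 ± 0.16 (adjusted p = 0.828). In all, 0 of the 5 measured genes of this list were higher, 2 were lower and 3 did not pass.

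Among 10 genes for chaperones and peptide trimming 2 were higher, 1 was lower and 7 did not pass, with a median of 0.01. The aminopeptidase Lap3 rose by 1.34 ± 0.12, or 2.53-fold (adjusted p = 8.84e-05, limma), from 7.98, 7.98 and 8.11 to 9.33, 9.21 and 9.55. Tapbpl, a relative of tapasin that also edits peptides, was at 0.46 ± 0.13 (adjusted p = 0.0261), and Thop1, a peptidase that destroys peptides, was at -0.45 ± 0.13 (adjusted p = 0.0315). Both calls were lost without variance moderation (adjusted p = 0.0673 for Tapbpl and 0.0807 for Thop1), and that of Thop1 also with the replicate block (0.0605). They were also lost in several of the repeats with 1 array left out. Tapbpl lost its call without any 1 of the GFP-high arrays or without GFP-negative replicate 3. Thop1 lost its call without any array but GFP-high replicate 3. Without that array 2 genes of the list were lower. The general chaperones of the loading complex did not pass, with Canx at -0.32 ± 0.14 (adjusted p = 0.116), Pdia3 at -0.20 ± 0.12 (adjusted p = 0.265) and Calr at 0.01 ± 0.14 (adjusted p = 0.979). Erap1, the aminopeptidase of the endoplasmic reticulum, overlapped between the groups (adjusted p = 0.462).

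Of 15 other class I and class I-like heavy chains 7 were higher, 0 were lower and 8 did not pass, with a median of 0.37. Several class I-like molecules were among those called. Fcgrt, the neonatal Fc receptor, rose by 1.41 ± 0.13, or 2.65-fold (adjusted p = 9.19e-05, limma), from 6.96, 6.90 and 6.61 to 8.36, 8.17 and 8.17. Mr1, which presents microbial vitamin metabolites to T cells, rose by 1.36 ± 0.15, or 2.57-fold (adjusted p = 0.000191). Hfe, which regulates iron uptake, rose by 1.15 ± 0.17, or 2.21-fold (adjusted p = 0.000962). All 3 pair with B2m.

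The nonclassical heavy chains were more varied. H2-Q4 was at 9.62, 9.30 and 8.81 against 8.14, 8.23 and 7.79 and rose by 1.19 ± 0.21 (adjusted p = 0.00278, limma), a call that missed the threshold without variance moderation (adjusted p = 0.0515). A second row annotated to H2-Q4 was higher by 0.71. H2-T10 (0.82 ± 0.18, adjusted p = 0.0089, limma), H2-Q10 (0.53 ± 0.12, adjusted p = 0.0109) and H2-Bl (0.37 ± 0.11, adjusted p = 0.0392) were also called higher. H2-T23, which carries leader peptides of other heavy chains to NK cell receptors, was at 8.03, 8.06 and 7.47 against 7.69, 7.99 and 6.79. The groups overlapped, replicate 3 was low on both sides, and the difference of 0.37 ± 0.30 did not pass (adjusted p = 0.418). Cd1d1, the lipid-presenting molecule, was at -0.04 ± 0.16 (adjusted p = 0.867).

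**Figure D3:**
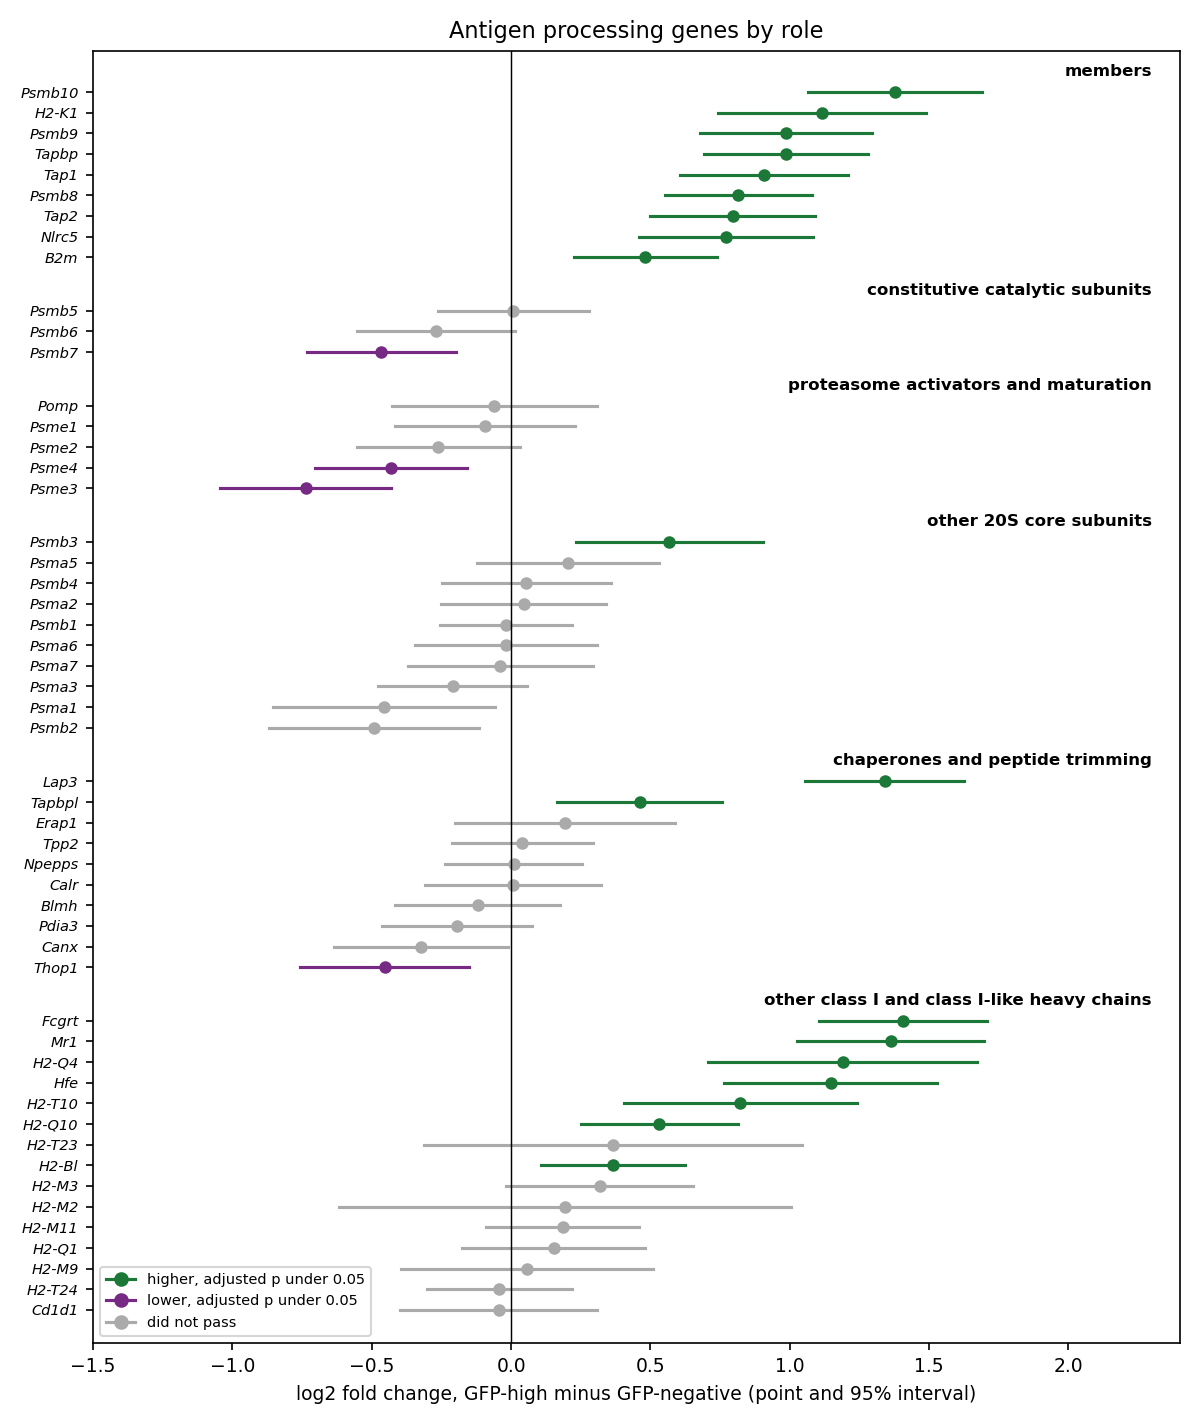
Log2 fold change, GFP-high minus GFP-negative, with its 95% interval for the 9 members and for related genes grouped by role (n = 3 per group). All 9 members lie to the right of 0, and 7 of 15 other class I and class I-like heavy chains were also called higher (green), with 0 lower. Of the constitutive catalytic subunits 1 of 3 was called lower (purple), as were 2 of 5 activators. Of 10 other core subunits 1 was higher and 9 did not pass (grey). Of 10 genes for chaperones and peptide trimming 2 were higher and 1 was lower.

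Upstream genes were read by pathway. In the list of interferon receptors and JAK-STAT-IRF factors 9 of 18 measured genes were higher, 0 were lower and 9 did not pass, with a median of 0.35. The number called higher was 7 without GFP-high replicate 3, and 5 without GFP-high replicate 1 or without GFP-negative replicate 1. Ifnlr1, the receptor for interferon lambda on epithelial cells, rose by 1.72 ± 0.12, or 3.30-fold (adjusted p = 1.38e-05, limma). Ifnar2, a subunit of the type I receptor, rose by 1.47 ± 0.13 (adjusted p = 6.07e-05), while its partner Ifnar1 was at 0.00 ± 0.12 (adjusted p = 0.999). Both subunits of the interferon gamma receptor passed, with Ifngr1 at 9.04, 9.01 and 9.15 against 7.95, 8.24 and 7.65. Ifngr1 rose by 1.12 ± 0.16 (adjusted p = 0.00076) and Ifngr2 by 1.11 ± 0.13 (adjusted p = 0.000347).

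Among the factors downstream of these receptors Irf7, which amplifies the type I response, rose by 1.35 ± 0.14 (adjusted p = 0.000183, limma). Irf1, the interferon gamma-induced activator of class I genes, was at 9.44, 9.19 and 9.16 against 8.73, 8.81 and 8.87, a difference of 0.46 ± 0.12 (adjusted p = 0.0194). Its call was lost without GFP-high replicate 1 (adjusted p = 0.0727) and without GFP-negative replicate 1 (0.0712). Stat2 (0.18 ± 0.13, adjusted p = 0.352), Jak1 (0.28 ± 0.11, adjusted p = 0.0956) and Jak2 (-0.30 ± 0.15, adjusted p = 0.169) did not pass.

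Of the interferon genes, Ifng and Ifnb1 lay below the array medians of 5.30 to 5.43 in every array. Others lay above those medians in every array of both groups and did not pass. Ifna1 lay between 7.15 and 7.66 and Ifnl2 between 7.71 and 8.06. Ifna4 lay between 5.88 and 6.49 and Ifnl3 between 6.01 and 6.60. In the list of interferons and Tnf 2 of 10 were higher, 0 were lower and 8 did not pass, with a median of 0.16. Ifng lay between 4.58 and 4.76 in the 6 arrays (adjusted p = 0.601), and Ifnb1 lay between 3.00 and 3.75 (adjusted p = 0.972). The genes called were Ifnk, at 0.79 ± 0.14 (adjusted p = 0.00248, limma) with its highest value at 4.25, and Tnf. Tnf was at 8.55, 7.23 and 6.99 against 6.76, 6.21 and 6.17, so that GFP-high replicate 1 stood far above the other two. Its difference of 1.21 ± 0.37 (adjusted p = 0.0377) was lost without GFP-high replicate 2 (adjusted p = 0.0511), GFP-negative replicate 2 (0.109) or GFP-negative replicate 3 (0.101), and without variance moderation (0.193).

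Genes known as interferon gamma targets were called in part. Of 13 GTPases and chemokines 5 were higher, 0 were lower and 8 did not pass, with a median of 0.27. Iigp1, a GTPase that attacks the vacuoles of parasites, rose by 3.85 ± 0.18, or 14.4-fold (adjusted p = 1.73e-06, limma), from 3.69, 3.71 and 4.17 to 8.01, 7.60 and 7.51. Cxcl10, a T cell attractant, was at 10.65, 8.85 and 8.89 against 7.32, 7.20 and 6.82, with GFP-high replicate 1 again the highest, and rose by 2.35 ± 0.43 (adjusted p = 0.00331). Without variance moderation this call was lost (adjusted p = 0.0681). Igtp rose by 0.82 ± 0.14 (adjusted p = 0.0024), Gbp4 did not pass at 0.85 ± 0.39 (adjusted p = 0.149), and Cxcl9 was at -0.06 ± 0.12 (adjusted p = 0.759).

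All 6 measured genes of the NF-kB list were higher, with a median of 1.00, though 3 were called without variance moderation. Rel, a subunit with a transactivation domain, rose by 2.65 ± 0.20, or 6.29-fold (adjusted p = 2.58e-05, limma), from 5.90, 5.35 and 5.91 to 8.69, 8.31 and 8.13. Nfkb2, the precursor of the noncanonical pathway, rose by 1.62 ± 0.16, or 3.07-fold (adjusted p = 0.000127). The feedback inhibitors Tnfaip3 and Nfkbia were at 1.19 ± 0.24 (adjusted p = 0.0057) and 0.81 ± 0.19 (adjusted p = 0.0115). Without variance moderation they missed the threshold, at adjusted p = 0.0745 and 0.087. A kB match stood in the promoters of H2-K1 and B2m. Such a match was found in 3.90% of all 32851 RefSeq promoters of this length, and a match is a description, not a site of binding.

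The proteins that seat Nlrc5 on class I promoters were called in both directions. Of 8 measured partners and relatives 2 were higher, 1 was lower and 5 did not pass, with a median of -0.02. Ciita, the class II coactivator and a relative of Nlrc5, rose by 1.32 ± 0.16, or 2.50-fold (adjusted p = 0.000327, limma). The RFX subunit Rfxank rose by 0.56 ± 0.12 (adjusted p = 0.0067), whereas Rfx5 overlapped between the groups (0.07 ± 0.11, adjusted p = 0.671). In the NF-Y complex Nfyb fell by 0.64 ± 0.12 (adjusted p = 0.0033), and Nfya did not pass at -0.30 ± 0.12 (adjusted p = 0.0953).

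Polycomb repressive complex 2 is known to silence class I genes in small-cell lung cancer. Of its 10 measured genes 0 were higher, 4 were lower and 6 did not pass, with a median of -0.35. The accessory subunit Phf19 fell by 0.91 ± 0.11 (adjusted p = 0.000299, limma), from 7.23, 7.25 and 7.35 to 6.40, 6.29 and 6.41. Mtf2 was at -0.47 ± 0.12 (adjusted p = 0.0193) and Suz12 at -0.44 ± 0.12 (adjusted p = 0.0254). Suz12 missed the threshold without variance moderation (adjusted p = 0.0539). The catalytic subunit Ezh2 was at 8.96, 8.79 and 8.74 against 9.23, 8.98 and 9.46 and did not pass (-0.39 ± 0.14, adjusted p = 0.0748). The count of 4 fell to 2 without GFP-high replicate 1 and to 1 without GFP-high replicate 2, GFP-high replicate 3, GFP-negative replicate 1 or GFP-negative replicate 3.

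**Figure D4:**
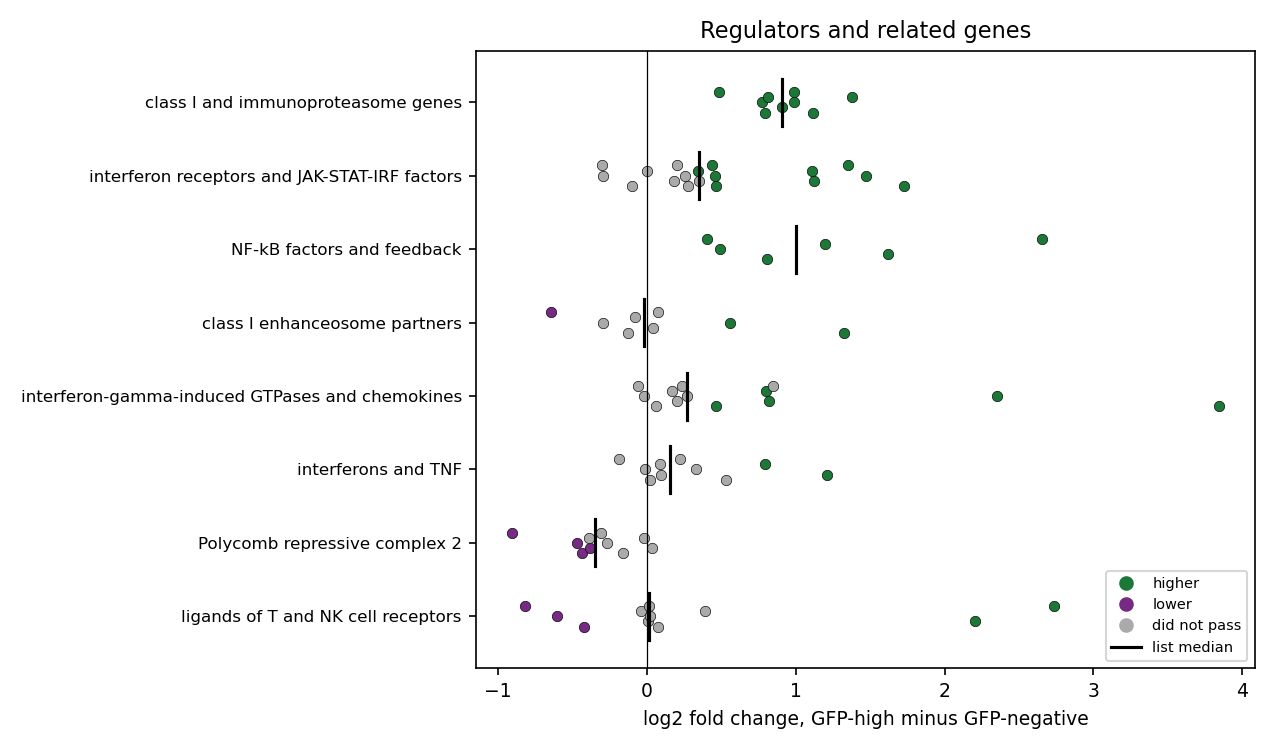
Log2 fold change, GFP-high minus GFP-negative, of each measured gene in the member list and in 7 related lists, with the list median as a black bar. The 9 members and the 6 NF-kB genes were all called higher (green), while the Polycomb list held 4 genes called lower (purple) and none called higher.

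Ligands that T and NK cells read beside class I moved in both directions: of 11 measured genes 2 were higher, 3 were lower and 6 did not pass, with a median of 0.01. Pvr, a ligand of activating and inhibitory receptors, rose by 2.73 ± 0.20, or 6.65-fold (adjusted p = 2.4e-05, limma). Icam1, the adhesion molecule bound by T cells, rose by 2.20 ± 0.16, or 4.61-fold (adjusted p = 2.58e-05). Ulbp1, a stress ligand for the NK receptor NKG2D, fell by 0.82 ± 0.15 (adjusted p = 0.00307). Cd274, which encodes PD-L1 and is itself an interferon target, was at 6.91, 6.38 and 6.85 against 7.47, 7.31 and 7.19, lower by -0.61 ± 0.16 (adjusted p = 0.0206). Leaving out GFP-negative replicate 1 (adjusted p = 0.0776) or GFP-negative replicate 2 (0.0527) ended that call, as did the fit without variance moderation (0.0955). The count of 3 lower ligands was 1 without GFP-negative replicate 1.

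The members lie at several places in the genome. In RefSeq order Psmb9, Tap1, Psmb8 and Tap2 adjoin one another on chromosome 17, where H2-K1 and Tapbp also lie, B2m is on chromosome 2, and Nlrc5 and Psmb10 are on chromosome 8. Of the 12 nearest non-member genes beside them 3 were higher, 0 were lower and 9 did not pass. H2-K1 lies between Vps52 (-0.16 ± 0.14, adjusted p = 0.462) and Ring1 (0.16 ± 0.14, adjusted p = 0.459), neither of which passed. Beside Nlrc5, Herpud1, a gene of the stress response of the endoplasmic reticulum, rose by 0.97 ± 0.14 (adjusted p = 0.001, limma) and Cpne2 by 0.94 ± 0.29 (adjusted p = 0.0377). On the other side of Psmb9, the class II gene H2-DMb1 was at 0.97 ± 0.29 (adjusted p = 0.0347). The calls of Cpne2 and H2-DMb1 were lost when single arrays were left out, Cpne2 in 4 of 6 such repeats and H2-DMb1 in 4 of 6. Both were also lost without variance moderation (adjusted p = 0.184 and 0.178). H2-DMb1 was lost as well with quantile normalization (adjusted p = 0.069) and with the replicate block (0.0723).

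Psmb9 and Tap1 face away from each other and share the interval between their start sites, shown because the same bases precede both. It spans chr17:34187331-34187555 in the GRCm38.p6 build and is printed on the plus strand, with the CCAAT box and the CREB/ATF core in capitals.
Psmb9-Tap1 interval: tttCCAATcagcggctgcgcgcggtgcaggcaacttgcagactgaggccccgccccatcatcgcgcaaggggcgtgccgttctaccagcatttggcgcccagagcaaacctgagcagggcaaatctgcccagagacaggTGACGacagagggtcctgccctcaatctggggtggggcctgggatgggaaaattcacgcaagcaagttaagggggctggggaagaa
This interval of 225 bases held 1 match to each of those motifs and 0 to the IRF core, to the kB motif and to the STAT-bound GAS motif, TTCNNNGAA.

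RefSeq promoters were at hand for 7 of the 9 members, all but Tap2 and Nlrc5. Among the 7, the IRF core was found in 2 (21.3% of all promoters), the GAS motif in 1, Psmb8 (7.02% of all), the kB motif in 2 (3.90%), the CREB/ATF core in 4 (17.8%) and the CCAAT box in 5 (33.8%). Psmb9 and Tap1 each count the shared interval. Psmb10, which had the largest difference, held 0 of these motifs in its 250 bases, and the lack of a match says only that these letters are not in this window.

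The genes with the pattern most like that of the members over the 6 arrays were Fam110a, Slc22a15, Ikbip, Stk38 and Pard6b. Likeness was the root mean square difference from the members' median profile, with the GFP-negative mean of each gene subtracted, and it ran from 0.0356 for Fam110a to 0.0576 for Pard6b. The members themselves ranged from 0.0639 (Psmb8) to 0.374 (Psmb10). Fam110a was at 7.74, 7.40 and 7.43 against 6.57, 6.79 and 6.66. Within the members' own largest distance there were 2039 other genes.

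Markers of other cells were read beside the members. For leukocytes, which express class I and the immunoproteasome strongly, 1 of 10 measured pan-leukocyte markers was higher, 1 was lower and 8 did not pass, with a mean level of 5.60 to 6.01 in GFP-high cells and 5.38 to 5.77 in GFP-negative cells. The defining marker Ptprc (CD45) was at 4.66, 4.16 and 4.95 in GFP-high and at 5.42, 4.88 and 4.86 in GFP-negative, and did not pass (adjusted p = 0.17). Lcp1 rose by 3.25 ± 0.19 (adjusted p = 6.47e-06, limma) and Coro1a fell by 1.09 ± 0.20 (adjusted p = 0.00295). T cell markers (9 measured, 0 called) averaged 4.71 to 4.76 against 4.71 to 4.80, and NK cell markers (7 measured, 0 called) averaged 4.46 to 4.58 against 4.48 to 4.56.

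Macrophage and monocyte markers averaged 5.87 to 6.32 in GFP-high and 5.68 to 6.11 in GFP-negative arrays, with 1 of 12 higher, 1 lower and 10 not passed. Cd14 rose by 2.32 ± 0.22 (adjusted p = 0.000109, limma), while C1qa, a macrophage complement gene, was at -0.42 ± 0.13 (adjusted p = 0.0385), a call lost without either of GFP-high replicates 2 and 3 or GFP-negative replicates 1 and 2. The C1qa call was also lost without variance moderation (adjusted p = 0.0812) and with the replicate block (0.0543). Without GFP-high replicate 2 the list had 3 genes higher. Of 7 measured B cell markers 1, Cd79b, was higher, at 0.87 ± 0.12 (adjusted p = 0.000685, limma). The B cell list averaged 4.83 to 4.91 against 4.64 to 4.80, with no overlap. Dendritic cell markers averaged 5.61 to 5.85 against 5.57 to 5.85, with 0 of 7 called, and 1 called higher without GFP-high replicate 3. Neutrophil markers averaged 4.25 to 4.44 against 4.10 to 4.19, with no overlap and 1 of 8 higher, Retnlg at 0.65 ± 0.20 (adjusted p = 0.0361). Retnlg lost its call without GFP-high replicate 1 or 2 or GFP-negative replicate 1 or 3. It was also lost without variance moderation (adjusted p = 0.153) and with quantile normalization (0.0544). Fibroblast markers averaged 5.36 to 5.97 against 5.53 to 5.58, with 0 of 8 higher and 1 lower, the proteoglycan gene Dcn at -1.47 ± 0.38 (adjusted p = 0.0175). The call of Dcn was lost without GFP-high replicate 1 or 2 or GFP-negative replicate 2, and without variance moderation (adjusted p = 0.137). Without GFP-high replicate 2 the list of fibroblast markers had 2 genes higher. The part of these cells in the members' values was not tested.

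The alveolar, club and neuroendocrine lists had larger median differences than any single member, at 4.0 for alveolar type 2, 1.83 for alveolar type 1, 4.68 for club and secretory and -2.39 for neuroendocrine markers. Alveolar type 2 markers were higher in 9 of 10 measured genes, with a list mean of 9.54 to 9.98 against 5.93 to 6.36, and alveolar type 1 markers in 8 of 8, at 8.84 to 9.11 against 6.67 to 6.78. Club and secretory markers were higher in 7 of 8, at 12.15 to 12.37 against 8.08 to 8.89. Neuroendocrine markers were lower in 10 of 10 measured genes. Lamp3, a lysosomal gene of type 2 cells, rose by 5.76 ± 0.14 (adjusted p = 1.83e-07, limma), and Ager, a type 1 cell receptor, rose by 4.53 ± 0.12 (adjusted p = 1.83e-07). The neural adhesion molecule Ncam1 fell by 2.67 ± 0.35 (adjusted p = 0.000524). Ciliated cell markers averaged 5.70 to 6.12 against 5.38 to 5.65, also without overlap, with a median difference of 0.29, below that of every member. Of the 7 measured 1 was higher, 2 were lower and 4 did not pass: the dynein light chain Dynlrb2 rose by 3.10 ± 0.19 (adjusted p = 7.68e-06), and the count of lower genes was 0 without GFP-high replicate 1 or 2 or GFP-negative replicate 1. Endothelial markers averaged 5.23 to 5.27 against 4.84 to 4.91, also without overlap. Of the 9 measured 2 were higher and 1 was lower, or 2 were lower without GFP-high replicate 3. Kdr, a VEGF receptor, rose by 3.87 ± 0.13 (adjusted p = 3.18e-07) and the endothelial factor Erg fell by 1.31 ± 0.12 (adjusted p = 9.34e-05). Whether GFP-high pools held normal lung epithelium or tumour cells with such genes cannot be told apart here, and its part in the class I difference was not tested.

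**Figure D5:**
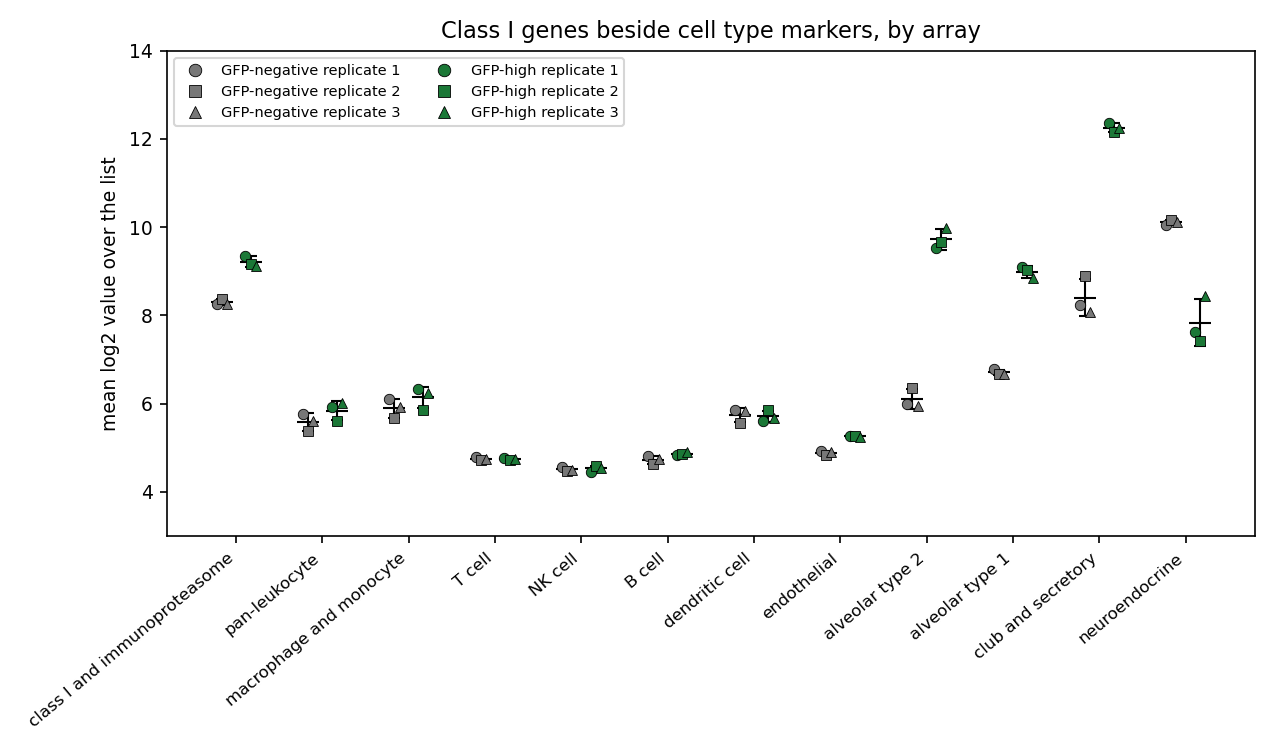
Mean log2 value over the class I members and over each of 11 marker lists, 1 symbol per array, with the group mean and SD (n = 3 per group). The members and the alveolar and club lists are higher in GFP-high arrays (green), and the neuroendocrine list is lower. Also higher without overlap are the endothelial list, at 5.23 to 5.27 against 4.84 to 4.91, and the B cell list, at 4.83 to 4.91 against 4.64 to 4.80. The T cell and NK cell lists lie between 4.46 and 4.80 in both groups.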

How the data were processed

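Array values of 6 samples of cells sorted from tumours, 3 GFP-high and 3 GFP-negative by their titles, were used as deposited. They are log2 expression values that the authors made with RMA, per the submitters' processing notes. RMA corrects background, equalises the distribution over arrays and combines probes, and its version was not given in the sources used here. That the scale is log2 was read from the values (0.989 to 13.72, with array medians of 5.30 to 5.43). This hides a shift shared by most genes and compresses folds near the bottom of the scale. No scan date was at hand.

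Of 41344 rows the platform annotation names 1 gene for 23520, several for 1814 and none for 16010. Entrez identifiers of 23327 rows were found in the RefSeq table and changed 0 symbols. For 1082 genes with several rows the highest-mean row was kept, which gave 22179 genes, with no filter on low values. The table has 0 columns of other samples.

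Groups were compared with limma 3.58.1 in R 4.3.3 (lmFit and eBayes, 4.50 prior and 4 residual degrees of freedom, no block), as GFP-high minus GFP-negative, two-sided, with Benjamini-Hochberg adjustment over all genes and calls under 0.05. Intervals are 95%. The fit was tested on simulated data. Subunit pairs used an exact permutation test (scipy 1.17.1). Tables and plots used Python 3.11.15, numpy 2.4.6, pandas 2.3.3 and matplotlib 3.10.9.

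Members and gene lists were chosen with earlier results of these data known, so list counts are descriptions. The rule for genes to name took every member, in each list the up to 4 measured genes that differed most in absolute size (all of a list of 5 or fewer), the nearest protein-coding neighbours with a row, the 5 genes nearest to the members' median profile, and Hes1. Not all of these are printed; the marker lists are given mainly by level and count. Genes named outside this rule, after their values were seen, are Ifngr2, Irf1, Ifnar1, Stat2, Jak1, Jak2, Ifng, Ifnb1, Cxcl9, Rfx5, Erap1, Pdia3, Calr, H2-T23 and Cd1d1. Also named outside it are Ifna1, Ifna4, Ifnl2, Ifnl3, H2-T10, H2-Q10 and H2-Bl, which were not followed singly through the alternatives. Promoter sequences and gene order are from RefSeq, GRCm38.p6. The closing section gives 16 alternatives, among them other normalizations, other row choices, other variance settings, a replicate block and each array left out. The labels do not say that equal replicate numbers share a pool, so the main fit had no block. Same-numbered arrays of the groups had residuals correlated at -0.03 to 0.11, and differently numbered arrays at -0.07 to 0.06. With 3 arrays per group these values cannot decide whether the numbers pair the arrays.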

Additional observations from a re-analysis of the deposited data

Results flagged for a closer look

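Results set aside from the comparison came from rows outside the rule of 1 gene and 1 row, and are listed because they carry a signal for the same genes. The row shared by H2-Q2 and H2-D1 was at 7.49, 7.25 and 7.42 in the GFP-high arrays and at 6.88, 7.09 and 7.02 in the GFP-negative arrays. The groups did not overlap, and the difference was 0.39 ± 0.12 on the log2 scale (SE, n = 3 per group, adjusted p = 0.0355, limma). That fit held the rows of the 22179 genes and the rows that name a listed member together with another gene. Which of the 2 heavy chains it reflects cannot be told apart.

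A row shared by Tapbp and its neighbour Zbtb22 was at 7.22, 7.17 and 7.20 against 6.72, 6.60 and 6.51, a difference of 0.58 ± 0.11 (adjusted p = 0.00364, limma). Zbtb22 in its own row was at -0.13 ± 0.11 (adjusted p = 0.437). The second row annotated to Tapbp alone was at 7.95, 7.85 and 7.67 against 7.25, 7.21 and 7.23, a difference of 0.60 ± 0.12 (adjusted p = 0.0045, limma). Both Tapbp-bearing rows gave the direction of the main Tapbp row at a smaller size, 0.58 and 0.60 against 0.99.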

How the results depend on the processing

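All 9 members were called higher under each of the 16 alternatives, which is 144 of 144 member results, and the largest adjusted p among them was 0.0484, for B2m. Leaving out 1 array at a time moved B2m between 0.43 and 0.53, and Psmb10 between 1.28 and 1.49, on the log2 scale. The count was 10 with every row on its own, which adds the second Tapbp row. It was also 10 with rows naming several genes, which adds the row shared by H2-Q2 and H2-D1. That last count leaves out the row shared by Tapbp and Zbtb22, which was in the same fit and also passed (adjusted p = 0.00364, limma). With the replicate block 9 members were called, of 6172 genes in all against 6661 without it. Over all genes the count ran from 5054 without variance moderation to 6998 with every row on its own, and from 5408 to 6116 with 1 array left out. Median centring and quantile normalization moved the median of all genes to 0.00 and -0.02. With 1 array left out, the shift of Psmb8 minus Psmb5 ran from 0.68 to 0.89, that of Psmb9 minus Psmb6 from 1.22 to 1.29 and that of Psmb10 minus Psmb7 from 1.73 to 1.99. The other genes followed numbered 141, those the naming rule took and 15 of those named outside it. Among them 2104 of 2233 results kept their direction and side of the threshold. Of the rest 74 lost the call, 27 gained one, 27 that had no call changed sign and 1 lost its call with a change of sign. That was Uchl1, a neuroendocrine marker, in a second row at 0.032 ± 0.17 (adjusted p = 0.914, limma), whose cause was not tested. With 3 arrays per group the precision is limited by their number.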
